A study of Mus musculus with 32 samples.

Results

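A set of genes that interferons switch on was followed through quadriceps muscle of mice with and without Col6a2, whose product is a chain of the matrix protein collagen VI. The 9 genes (Isg15, Ifit1, Ifit3, Rsad2, Ifitm3, Bst2, Irf7, Irf1 and Stat2) were chosen by name, with earlier results of these data known, from 53801 gene IDs in each table. All 9 were found under 1 gene ID each, and all 9 passed the filter of at least 1 TPM in at least 4 libraries that left 12817 genes for testing. They also passed it in the wild-type (WT) libraries taken alone, where 4 (Isg15) to 16 libraries of 16 reached 1 TPM. TPM is a transcript level scaled by transcript length and by the total of its library.

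Mice were WT or Col6a2-/-, homozygous for a KOMP knockout allele that was made in C57BL/6N and crossed back to C57BL/6J for 5 generations, and both genotypes came from heterozygous breeders. Each genotype was sampled at 5 and at 25 weeks of age, in females and males, with 4 mice in each of the 8 groups and 1 library of whole quadriceps per mouse. The allele is absent or present in every tissue of the mouse rather than in one cell type, and no group was treated. Differences between genotypes are changes in log2(TPM + 1), with WT subtracted from Col6a2-/-, and carry limma's standard error (SE) and a Benjamini-Hochberg adjusted p over all 12817 genes, and a gene is said to be called where that p lies under 0.05. On this scale the change of a weakly expressed gene comes out too small.

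Type I interferons bind the receptor pair Ifnar1 and Ifnar2, and type II interferon binds Ifngr1 and Ifngr2. Kinases on the receptors then phosphorylate transcription factors, among them Stat2, which with Irf9 is part of a complex that binds the interferon-stimulated response element (ISRE) in promoters. A second promoter element of the response is the gamma-activated site (GAS). Their targets include antiviral proteins and further transcription factors such as Irf7 and Irf1, which carry the response on. In muscle these genes are best known from inflammatory muscle disease and from infiltrating or resident macrophages.

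The promoters were read first, because the 9 genes were grouped by their known response and not by sequence. RefSeq windows of 300 bases, from 250 before to 50 after the start of each gene on GRCm38.p6, were available for 9 of 9, with 10 windows in all since Irf1 has 2. The ISRE core was searched as GAAA, any 2 bases and GAAA again, on both strands, and it occurred in 7 of the 10 windows, 1 in each of 7 genes, against 3.44% of 32851 windows of the same length. The 7 matching stretches and 1 GAS match follow, each 5′ to 3′ on the strand of its gene with the motif in capitals and, except for Ifitm3, the bases on both sides; other bases are in lower case. Overlapping matches run together.
Isg15, chr4:156200860-156200911, minus strand: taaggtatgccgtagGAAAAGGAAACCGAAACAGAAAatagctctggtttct
Bst2, chr8:71537572-71537617, minus strand: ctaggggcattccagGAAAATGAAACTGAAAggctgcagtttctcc
Ifitm3, chr7:141010716-141010742, minus strand: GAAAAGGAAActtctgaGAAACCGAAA
Ifit1, chr19:34640770-34640828, plus strand: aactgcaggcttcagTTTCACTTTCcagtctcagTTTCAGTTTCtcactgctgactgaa
Ifit3, chr19:34583358-34583431, plus strand: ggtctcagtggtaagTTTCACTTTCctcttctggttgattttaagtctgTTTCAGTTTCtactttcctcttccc
Rsad2, chr12:26456548-26456587, minus strand: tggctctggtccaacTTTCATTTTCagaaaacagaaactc
Stat2, chr10:128270261-128270300, plus strand: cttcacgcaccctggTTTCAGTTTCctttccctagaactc
Irf1, chr11:53769909-53769947, plus strand: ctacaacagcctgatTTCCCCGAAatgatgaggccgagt

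The core appears as written in Isg15, Bst2 and Ifitm3 and as its reverse complement in Ifit1, Ifit3, Rsad2 and Stat2. Isg15 held 3 overlapping matches 66 to 78 bases before its start. Bst2, Ifitm3, Ifit1 and Ifit3 held 2 each, and Rsad2 and Stat2 held 1 each. The matches of Ifitm3 lay just after the RefSeq start, in transcribed sequence, and the others lay before it. Neither Irf7 nor Irf1 held the ISRE letters in this window, which says nothing on sites elsewhere. The GAS letters TTCNNNGAA occurred in Irf1, where the match lay 90 bases before the start, and also in Bst2 and Ifitm3, against 8.30% of all windows. In Bst2 the GAS letters overlapped the first ISRE match, and in Ifitm3 they lay between the 2 ISRE matches and overlapped the second. A match of letters is a description and not a bound site.

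Col6a2 itself ran from 6.60 to 51.2 TPM in WT and lay at or below 0.171 TPM in all Col6a2-/- libraries, so the genotypes matched their labels (exact permutation p = 0.0001554 at each age, two-sided, the smallest that 12870 splits can give). The ratio of coverage to FPKM (fragments scaled by transcript length and by the total of the library), which serves as a measure of relative depth, ran from 6.78 to 13.69 over the libraries. Replicate 4 of the 5-week Col6a2-/- females stood apart from its 3 group mates: all 9 genes were lower in it than in any of them, and 9 of 9 lay at or below the highest 5-week WT library. It is drawn as an open diamond in the plots of the 9 genes, and values without it are given where it changes a call.

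**Figure D1:**
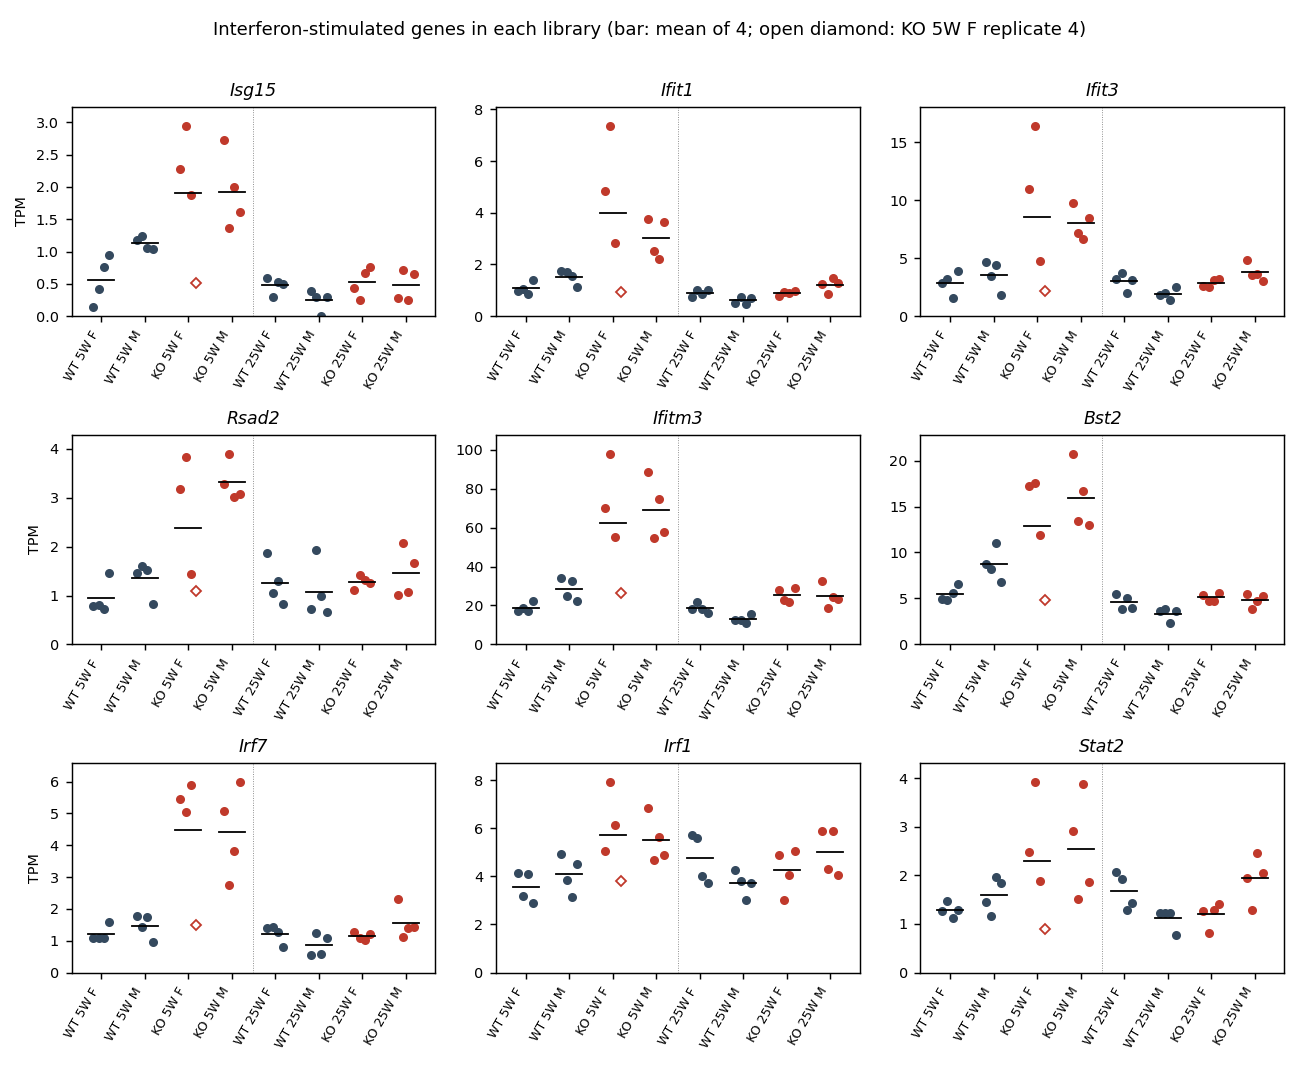
TPM of each of the 9 genes in all 32 libraries (y axis, linear from 0), with the 8 groups on the x axis, 1 point per mouse and a bar at the mean of 4. WT is dark and Col6a2-/- (KO) is red, and the open diamond is replicate 4 of the 5-week Col6a2-/- females, which reads 26.5 TPM for Ifitm3 beside 55.3 to 97.9 TPM in its group mates.

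At 5 weeks all 9 genes were higher in Col6a2-/- muscle. The change ran from 0.42 for Stat2 to 1.39 for Ifitm3 with a median of 0.87, against a median of 0.145 over all genes tested. With a pseudocount of 0.1 in place of 1, the ends were Irf1 (0.53) and Irf7 (1.58). In the same comparison 23.2% of all tested genes were called higher and 2.14% lower, so a call in this direction is common, and the 9 of 9 is to be read against that share. The 2 Col6a2-/- groups of this age had the highest means of the 8 groups for every one of the 9 genes. The genotypes overlapped for all 9 genes with replicate 4 of the Col6a2-/- females included, where 1.18% of all tested genes had every Col6a2-/- library above every WT library. Without it, the 7 remaining Col6a2-/- libraries lay above all 8 WT libraries for Isg15, Ifit1, Ifit3, Irf7, Bst2 and Ifitm3, while Irf1, Stat2 and Rsad2 still overlapped. Of all tested genes, 5.28% were apart in this way without it.

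Among the antiviral effectors, Ifitm3 had the highest level. Its product sits in endosomal membranes and blocks the fusion of entering viruses (ENSMUSG00000025492, GRCm38 chromosome 7, 141009586 to 141010770, minus strand). At 5 weeks it had 17.3, 18.5, 17.3 and 22.5 TPM in WT females and 34.0, 24.9, 32.6 and 22.1 TPM in WT males. Col6a2-/- females had 70.3, 97.9, 55.3 and 26.5 TPM, and Col6a2-/- males had 88.5, 54.6, 74.5 and 57.9 TPM. Thus 7 of the 8 Col6a2-/- libraries lay above every WT library, and the other lay among the WT males. The change was 1.39 (SE 0.17, limma adjusted p = 9.38e-07), and 1.57 (SE 0.13) without that library. Ifitm3 belongs to a family of near copies, and reads shared with its neighbours could have been split between them in the counting.

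Bst2, also called tetherin, holds budding virus particles at the cell surface (ENSMUSG00000046718, chromosome 8, 71534255 to 71537456, minus strand). Its 8 WT libraries at 5 weeks ran from 4.84 through a median of 6.67 to 11.05 TPM, and its 8 Col6a2-/- libraries from 4.82 through 15.1 to 20.7 TPM. WT males had 8.70 ± 1.79 TPM and WT females 5.49 ± 0.81 TPM (SD, n = 4), a difference that was not tested. Col6a2 was also higher in WT males of this age (31.3 to 51.2 against 19.9 to 30.2 TPM), so such a gap is not particular to Bst2. The genotype change of Bst2 was 0.88 (SE 0.16, limma adjusted p = 0.000244), with 7 of 8 Col6a2-/- libraries above the highest WT library.

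Ifit1 and Ifit3 encode tetratricopeptide proteins that bind viral RNA or each other, and both lie on chromosome 19 (ENSMUSG00000034459, 34640871 to 34650009; ENSMUSG00000074896, 34583531 to 34588731; both plus strand). Ifit1 ran from 0.872 through 1.26 to 1.75 TPM in WT and from 0.936 through 3.24 to 7.37 TPM in Col6a2-/- at 5 weeks. Ifit3 ran from 1.59 through 3.34 to 4.64 TPM in WT and from 2.17 through 7.81 to 16.4 TPM in Col6a2-/-. The highest value of both genes came from replicate 2 of the Col6a2-/- females and the lowest Col6a2-/- value from replicate 4 of the same group, so the females spread more widely than the males. The changes were 0.87 for Ifit1 (SE 0.17, limma adjusted p = 4e-04) and 1.03 for Ifit3 (SE 0.22, limma adjusted p = 0.00119). Ifit3 has a near copy, Ifit3b, so its own level is uncertain to the extent that reads were shared.

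Isg15, a ubiquitin-like protein that is attached to other proteins, was the lowest of the 9 (ENSMUSG00000035692, chromosome 4, 156199424 to 156200818, minus strand). It ran from 0.146 through 0.986 to 1.24 TPM in WT and from 0.509 through 1.93 to 2.95 TPM in Col6a2-/- at 5 weeks. WT females had 0.146 to 0.940 TPM and WT males 1.03 to 1.24 TPM, a difference that was not tested. The change was 0.64 (SE 0.14, limma adjusted p = 0.00196), and 1.12 with a pseudocount of 0.1 in place of 1. The median coverage of Isg15 over the 32 libraries was 5.36, and 1 WT library at 25 weeks listed it at 0, so its values carry more counting error than those of Ifitm3, whose median coverage was 184.

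Rsad2 encodes viperin, which makes a chain-terminating nucleotide (ENSMUSG00000020641, chromosome 12, 26442746 to 26456452, minus strand). It had 0.725 through 1.15 to 1.60 TPM in WT and 1.09 through 3.13 to 3.90 TPM in Col6a2-/- at 5 weeks, lowest, median and highest of 8. Males had 0.836 to 1.60 TPM in WT and 3.01 to 3.90 TPM in Col6a2-/-. Replicates 3 and 4 of the Col6a2-/- females, at 1.45 and 1.09 TPM, lay within the WT range. The change was 0.81 (SE 0.15, limma adjusted p = 0.000236).

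Of the transcription factors, Irf7 moved most. It is the factor that carries the positive feedback of type I interferon production (ENSMUSG00000025498, chromosome 7, 141262706 to 141266481, minus strand). At 5 weeks it had 1.08, 1.09, 1.09 and 1.59 TPM in WT females and 1.77, 1.43, 1.73 and 0.950 TPM in WT males. Col6a2-/- females had 5.45, 5.03, 5.89 and 1.505 TPM, and Col6a2-/- males had 5.07, 2.76, 3.83 and 5.99 TPM. Of the Col6a2-/- mice, 3 of 4 females and 4 of 4 males lay above the highest WT library. The change was 1.16 (SE 0.16, limma adjusted p = 4.57e-06). Irf7 overlaps Phrf1 on the other strand, and since the use of strand is not given in the sources used here, reads of the pair may be mixed.

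Stat2 and Irf1 moved less. Stat2, a subunit of the ISRE-binding complex (ENSMUSG00000040033, chromosome 10, 128270559 to 128292849, plus strand), ran from 1.11 through 1.37 to 1.97 TPM in WT and from 0.902 through 2.18 to 3.92 TPM in Col6a2-/- at 5 weeks. Of its Col6a2-/- libraries, 4 of 8 lay above the highest WT library. Its change of 0.42 (SE 0.14, limma adjusted p = 0.0311) had the highest adjusted p of the 9. The call was lost in 6 of 32 fits that left out 1 library each, and also with no filter (limma adjusted p = 0.0664), the libraries of this age alone (limma adjusted p = 0.0931), median-of-ratios size factors (limma adjusted p = 0.0746) and quantile normalization (limma adjusted p = 0.138). With the filter at 5 TPM it was not tested.

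Irf1, which answers both interferon types and also NF-κB (ENSMUSG00000018899, chromosome 11, 53770014 to 53778374, plus strand), had a change close to that of Stat2. It ran from 2.88 through 3.99 to 4.93 TPM in WT and from 3.80 through 5.35 to 7.93 TPM in Col6a2-/- at 5 weeks. All 8 Col6a2-/- libraries lay above the WT mean of their sex, but only 5 of 8 lay above the highest WT library. The change was 0.44 (SE 0.12, limma adjusted p = 0.00896). It overlaps Gm17334 on the other strand.

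The 8 genes other than Stat2 kept their call at 5 weeks in every one of the 32 fits that left out 1 library each. Median-of-ratios size factors brought the median change of all genes at 5 weeks from 0.145 to 0.000616 and quantile normalization brought it to -0.025, and the 9 changes stayed above 0 under both but were smaller. Stat2 came to 0.28 and 0.23, Irf1 to 0.28 and 0.26, and Ifitm3 to 1.20 and 1.31. With these scalings the calls over all genes split into 1623 higher and 1479 lower, and 1413 higher and 1672 lower, against 2979 and 274 in TPM. At 25 weeks they split into 750 higher and 532 lower, and 483 higher and 365 lower, against 573 and 30.

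**Figure D2:**
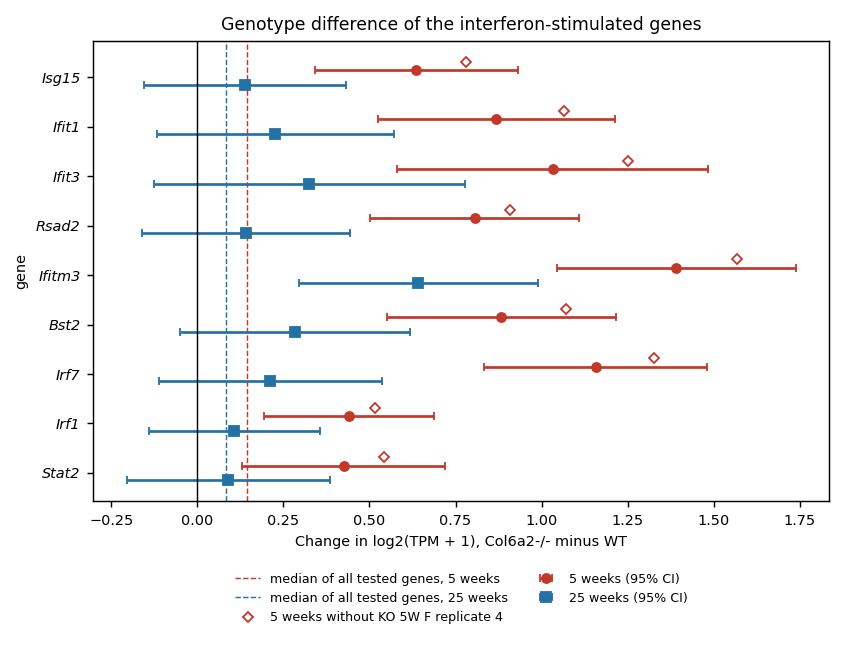
Change in log2(TPM + 1), Col6a2-/- minus WT (x axis), of each of the 9 genes (y axis) at 5 weeks (red circles) and 25 weeks (blue squares), with 95% confidence intervals; open diamonds give 5 weeks without replicate 4 of the Col6a2-/- females, and dashed lines the median of all tested genes. All 9 intervals lie above 0 at 5 weeks, and at 25 weeks that of Ifitm3 does (0.29 to 0.99).

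At 25 weeks 1 of the 9 genes was called, Ifitm3, against 4.47% of all tested genes called higher. WT females had 18.1, 21.6, 18.4 and 16.1 TPM of Ifitm3 and WT males 12.6, 12.7, 11.01 and 15.7 TPM. Col6a2-/- females had 27.9, 22.8, 21.7 and 28.9 TPM and Col6a2-/- males 32.4, 18.5, 24.6 and 23.3 TPM. In females the highest WT library (21.63 TPM) and the lowest Col6a2-/- library (21.67 TPM) nearly met. Limma did not call the female contrast (0.42, unadjusted p = 0.0878). Across the sexes only the lowest Col6a2-/- male lay within the WT range. How many of all tested genes were apart to this extent was not counted. Over both sexes the change was 0.64 (SE 0.17, limma adjusted p = 0.0261). The call was lost in 5 of the 32 fits that left out 1 library each, those without WT female replicate 4, WT male replicate 3, Col6a2-/- female replicate 1 or 4, or Col6a2-/- male replicate 1, all of 25 weeks. It was also lost with no filter (limma adjusted p = 0.0790).

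The other 8 genes had changes from 0.089 (Stat2) to 0.33 (Ifit3) at 25 weeks, none called, with a median over the 9 of 0.21 against 0.0823 over all genes. These estimates do not show equal levels. The 95% interval reached 0.78 for Ifit3, 0.62 for Bst2, 0.57 for Ifit1 and 0.54 for Irf7. Irf7, for example, ran from 0.542 through 1.16 to 1.43 TPM in WT and from 1.03 through 1.24 to 2.31 TPM in Col6a2-/-, and only 2 of 8 Col6a2-/- libraries exceeded the highest WT library. Bst2 ran from 2.33 through 3.86 to 5.47 TPM and from 3.80 through 5.01 to 5.61 TPM, with all 8 Col6a2-/- libraries above the WT mean of their sex.

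Whether the genotype difference changed with age was tested directly. The difference was smaller at 25 than at 5 weeks in all 9 estimates, by -0.33 (Irf1) to -0.95 (Irf7), and 7 of the 9 had an unadjusted p under 0.05. In either direction, 898 of all 12817 tested genes did. After adjustment 1 was called, Irf7 (-0.95, SE 0.22, limma adjusted p = 0.0459), where 0.492% of all tested genes were called in either direction and 0.421% were called lower. It was lost with the replicate number as a block (limma adjusted p = 0.0572), with FPKM (0.0535), no filter (0.0892), the filter at 5 TPM (0.0911) or a pseudocount of 0.1 (0.143), and in most fits that left out 1 library (kept in 6 of 32), whereas without replicate 4 of the 5-week Col6a2-/- females 7 of the 9 were called, against 1.79% of all tested genes in that fit: Irf7 at -1.12, Ifitm3 at -0.93, Ifit3 at -0.93, Ifit1 at -0.84, Bst2 at -0.79, Rsad2 at -0.77 and Isg15 at -0.64.

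With age some of the genes fell in either genotype. In WT muscle 3 of the 9 were called lower at 25 weeks, against 15.3% of all tested genes: Bst2 (-0.69, limma adjusted p = 0.00329), Ifitm3 (-0.54, limma adjusted p = 0.0232) and Isg15 (-0.42, limma adjusted p = 0.0381). Of the 32 fits that left out 1 library, Bst2 kept its call in 32, Ifitm3 in 29 and Isg15 in 23. The Isg15 call was also lost with no filter, quantile normalization or the replicate block, and its change was -1.04 with a pseudocount of 0.1. That of Ifitm3 was also lost with no filter and after rescaling without mitochondrial and Rn7s genes. In Col6a2-/- muscle 8 of the 9 were called lower, against 28.8% of all tested genes. With the pseudocount of 1 the largest falls were -1.29 for Ifitm3, -1.29 for Bst2 and -1.15 for Irf7, while with 0.1 Isg15 fell most (-1.71). Irf1, which was not called, changed by -0.23 (limma adjusted p = 0.146). Without replicate 4 of the 5-week Col6a2-/- females all 9 were called lower, against 37.6% of all tested genes in that fit, with Irf1 at -0.30 (limma adjusted p = 0.0371). In WT the same fit called 4, against 17.4%, with Ifit1 added (-0.38, limma adjusted p = 0.014). Stat2 kept its call in Col6a2-/- in 20 of 32 fits that left out 1 library. It was lost with a pseudocount of 0.1 (limma adjusted p = 0.0577), median-of-ratios size factors (0.110) and quantile normalization (0.183). No filter, FPKM and the rescaling without mitochondrial and Rn7s genes, with 7 called each, also lost it. The counts in the 2 genotypes are not a test of their difference, which was tested as genotype by age.

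The sexes were also compared on their own. In 5-week females 8 of the 9 were called higher in Col6a2-/-, against 12.3% of all tested genes, with the pseudocount of 1 giving Ifitm3 (1.54), Irf7 (1.21), Ifit1 (1.08) and Ifit3 (1.05) the largest changes. With 0.1 in its place Isg15 (1.56) came above Ifit1 and Ifit3. With the libraries of this age alone 2 of the 9 were called, against 4.37% of all tested genes, and with no filter 5, against 4.11%. The rescaling without mitochondrial and Rn7s genes called 7 (778 of 12777 genes called higher). Median-of-ratios size factors called 6 (1012 of 12817) and quantile normalization 6 (834 of 12817), both losing Irf1 and Rsad2. Stat2 was not called in females (0.45, limma adjusted p = 0.143). The count moved with single mice, and so did the share of all tested genes called higher: 3 (3.11%) without Col6a2-/- female replicate 2, 5 without Col6a2-/- female replicate 1 (5.15%) or WT female replicate 1 (5.63%), and 9 (29%) without Col6a2-/- female replicate 4, where Ifitm3 had 1.89, Irf7 1.55, Ifit3 1.49, Ifit1 1.47 and Stat2 0.68 (limma adjusted p = 0.00801). Over the fits that left out 1 library, the female change went as low as 0.67 for Ifit3 and 0.76 for Ifit1. In 5-week males 4 were called, against 4.55% of all tested genes: Ifitm3 (1.24), Irf7 (1.11), Rsad2 (0.88) and Bst2 (0.80). That count fell to 2 without WT male replicate 4 (2.83% of all tested genes) and was 6 (6.56%) without Col6a2-/- female replicate 4, which enters only the shared estimate of spread. In the latter fit Ifit1 (0.66, limma adjusted p = 0.00806) and Ifit3 (1.01, limma adjusted p = 0.00822) were added. The count was 3 with a pseudocount of 0.1 (493 of 12817 genes called higher), no filter (774 of 32958), FPKM (469 of 12090) or the libraries of this age alone (299 of 12476).

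At 25 weeks no gene of the 9 was called in females by limma, and none had an unadjusted p under 0.05, where 0.00780% of all tested genes were called. Such an unadjusted p was found for 621 of all 12817 tested genes. In males 4 of the 9 had an unadjusted p under 0.05, where 2532 of all 12817 tested genes did in either direction. After adjustment 1 was called, Ifitm3 (0.86, SE 0.24, limma adjusted p = 0.0451), against 2.91% of all tested genes called higher. That call held in 15 of 32 fits that left out 1 library. It was lost with no filter (limma adjusted p = 0.124), FPKM (0.0596) and the rescaling without mitochondrial and Rn7s genes (0.0762). The genotype difference did not pass the test between the sexes for any of the 9 (limma, adjusted p of 1 for each, 0 with an unadjusted p under 0.05), where 0.0156% of all tested genes were called. The intervals of that difference ran from -0.51 to 0.997 over the 9 genes, so sizeable differences between the sexes remain possible. Averaged over genotype and age, 0 of the 9 were called between males and females, with 0 at an unadjusted p under 0.05 and 3.05% of all tested genes called.

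Ordering the 8 groups by mean level showed how far they could be told apart. For Ifitm3 the order was Col6a2-/- 5-week males (68.9 ± 15.7 TPM, SD, n = 4), Col6a2-/- 5-week females (62.5 ± 29.8), WT 5-week males (28.4 ± 5.82), Col6a2-/- 25-week females (25.3 ± 3.61), Col6a2-/- 25-week males (24.7 ± 5.77), WT 5-week females (18.9 ± 2.48), WT 25-week females (18.6 ± 2.28) and WT 25-week males (13 ± 1.97). Each neighbour in this order overlapped the next except the last pair. WT 25-week males had the lowest mean for 7 of the 9 genes, and WT 5-week females for Irf1 and Rsad2. Over all 9 genes, 54 of the pairs of neighbouring groups overlapped and 9 did not. Of those 9, the gap between 5-week Col6a2-/- males and the next group was seen for Ifit1, Ifit3 and Irf7. No such count over all tested genes is given here, so these counts only describe the 9 genes and do not set them apart from others.

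The genes also varied together between mice of one group. After the mean of each group was subtracted, Pearson's r over the 32 libraries was above 0 for all 36 pairs of the 9 genes, with a median of 0.59 and a range from 0.055 (Irf1 with Rsad2) to 0.89 (Ifit1 with Ifit3). In permutation tests adjusted over the 36 pairs, 18 passed for r and 14 for Spearman's rho. Over all pairs of tested genes, centred the same way, the median r was 0.321 and 84.1% lay above 0, so positive values are common and are not particular to the 9. Bst2 with Ifitm3 had r = 0.88 and rho = 0.80 (permutation, adjusted p of 0.00072 and 0.00108), and Ifit1 with Ifit3 had rho = 0.76 (permutation, adjusted p = 0.00372). The relation leaned on the 5-week Col6a2-/- females: the median r was 0.45 without their replicate 4, 0.24 without the whole group and 0.29 in WT libraries alone, and it was 0.38 without the 2 libraries farthest from the median of the first gene. Bst2 with Ifitm3 still had r = 0.74 without that group. Values of one library share its depth and scaling.

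Of all other genes, those most like the mean of the 9 across mice included Ifi47, an interferon-inducible GTPase, Oas1g, of the oligoadenylate synthetases, and Parp9. Their r over 32 libraries, with group means subtracted, was 0.91 for each. Without replicate 4 of the 5-week Col6a2-/- females these values were 0.84, 0.84 and 0.85, and without that whole group 0.66, 0.74 and 0.75. Zbp1 and Slfn8 were also among the 5 genes most alike. They lay at or below 0.580 and 0.786 TPM in every WT library and passed the filter through Col6a2-/- alone, so their r is not given. Oas1g was the one of these 5 on none of the lists used here.

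The rest of the pathway was read from lists of 151 further genes, of which 117 were tested. A gene high in Col6a2-/- alone could pass the filter through those libraries, so counts are given for the 97 that also passed it in the WT libraries taken alone. At 5 weeks 72 of these 97 were called higher and 0 lower, with a median change of 0.50, against 23.2% of all tested genes called higher and a median of 0.145. At 25 weeks 9 of the 97 were called higher and 0 lower, with a median of 0.24, against 4.47% of all tested genes called higher, 0.234% called lower and a median of 0.0823. The counts of the receptor, signalling, sensor, feedback, target and antigen presentation lists are likewise those of genes that passed in WT alone and are to be read against the same shares. The lists were not tested as sets.

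The interferons themselves were at the edge of detection. None of the 21 ligand genes passed the filter, 11 of them were listed at 0 in all 32 libraries, and the highest value of any was 0.072 TPM, of Ifnb1 in a 5-week Col6a2-/- library. Ifng reached at most 0.054 TPM. Ifnb1 was above 0 in 2 libraries, Ifng in 11 and Ifnz, at up to 0.025 TPM, in 27. No difference between groups was tested for these genes.

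Most receptor genes, in contrast, passed the filter, and only Ifnlr1, at up to 0.0499 TPM, did not. Of the 5 tested receptor genes, 4 were called higher at 5 weeks: Ifnar1 (0.42, SE 0.11, limma adjusted p = 0.00456), Ifnar2 (0.45, SE 0.15, limma adjusted p = 0.0301), Ifngr1 (0.44, SE 0.10, limma adjusted p = 0.00275) and Il10rb, which serves interleukin 10 and type III interferon (0.44). The fifth, Ifngr2, had -0.20 (limma adjusted p = 0.102). At 25 weeks 1 of 5 was called, Il10rb (0.33, limma adjusted p = 0.0425).

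Of the signalling proteins and interferon regulatory factors, 6 of 11 were called higher at 5 weeks and 2 of 11 at 25 weeks. Irf9, which gives the ISRE-binding complex its DNA contact, went from 3.32 ± 0.78 to 4.81 ± 1.10 TPM at 5 weeks (SD, n = 8; change 0.42, limma adjusted p = 0.00288). Irf5 (0.70), Stat3 (0.62) and the kinase Tyk2 (0.44) were also called, while Jak2 had -0.21 (limma adjusted p = 0.0532). At 25 weeks Stat3 (0.45, limma adjusted p = 0.0151) and Irf5 (0.46, limma adjusted p = 0.0395) were called.

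Nucleic acid sensors and their adaptors had 6 of 7 called higher at 5 weeks, among them Myd88 (0.53), and Mavs (0.20, limma adjusted p = 0.105) was the one that was not. Zbp1 and Dhx58 lay at or below 0.580 and 0.814 TPM in WT and reached 3.09 and 2.71 TPM in Col6a2-/-, so they passed the filter through Col6a2-/- alone and are given as values. At 25 weeks 1 of 7 was called, Tmem173, which encodes STING (0.43, limma adjusted p = 0.0432). Tlr3, a sensor of double-stranded RNA, had 0.31 at 5 weeks (limma adjusted p = 0.0451) and 0.33 at 25 weeks (limma adjusted p = 0.102). Feedback inhibitors had 6 of 8 called higher at 5 weeks. Usp18, which removes Isg15 from proteins and blocks Ifnar2, went from 1.16 ± 0.34 to 2.64 ± 0.96 TPM (0.72, limma adjusted p = 0.00012). Trex1 (0.997) and Samhd1 (0.61), both enzymes that degrade DNA or its precursors, were called as well, and at 25 weeks 1 of 8, Socs3 (0.71, limma adjusted p = 0.0453), was. Adar, which edits double-stranded RNA, was called at 5 weeks (0.51), while the phosphatase Ptpn2 had the smallest change of the list (0.11, limma adjusted p = 0.437).

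Further type I targets had 32 of 36 called higher at 5 weeks and 3 of 36 at 25 weeks. Ifi203 (0.94) and Ifi204 (1.03), both of the DNA-binding HIN-200 family, were among the first, and Ifi204 (0.61, limma adjusted p = 0.0142), Ifi207 (0.61, limma adjusted p = 0.00823) and Ifitm2 (0.39, limma adjusted p = 0.0433) were the 3 called at 25 weeks. Ifi27l2a had the largest change of this list at both ages, called at 5 weeks (1.20, SE 0.37, limma adjusted p = 0.019) and not at 25 weeks (1.14, limma adjusted p = 0.0759), and Nmi had the smallest (0.22, limma adjusted p = 0.0923 at 5 weeks; 0.043 at 25 weeks). Epsti1, at most 0.846 TPM in WT and 2.89 TPM in Col6a2-/-, is given as a value. Genes classed with type II interferon (GTPases and chemokines) had 8 of 15 called higher at 5 weeks, among them the GTPases Gbp6 (0.71), Irgm1 (0.67) and Irgm2 (0.50). Cxcl10, a chemokine that draws activated T cells, had 0.017 through 0.106 to 0.755 TPM in WT and 0.209 through 1.94 to 3.25 TPM in Col6a2-/- at 5 weeks, and since it passed the filter through Col6a2-/- alone its test is not given. Cd274 had 0.071 (limma adjusted p = 0.639). At 25 weeks 1 of 15 was called, Serping1 (0.56, limma adjusted p = 0.0235), and Gbp6 (0.32, limma adjusted p = 0.13) and Irgm2 (0.28, limma adjusted p = 0.373) came next by p. Genes of antigen presentation had 10 of 15 called higher at 5 weeks, with B2m at 0.96, H2-D1 at 0.87, H2-T23 at 0.71 and Tapbp, which loads peptides, at 0.46. The smallest change was that of the peptidase Erap1 (0.12, limma adjusted p = 0.35). At 25 weeks limma called 0 of 15 (7 higher at an unadjusted p under 0.05), with H2-D1 at 0.46 (limma adjusted p = 0.0771), Tapbp at 0.34 (limma adjusted p = 0.0807) and B2m at 0.38 (limma adjusted p = 0.125).

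**Figure D3:**
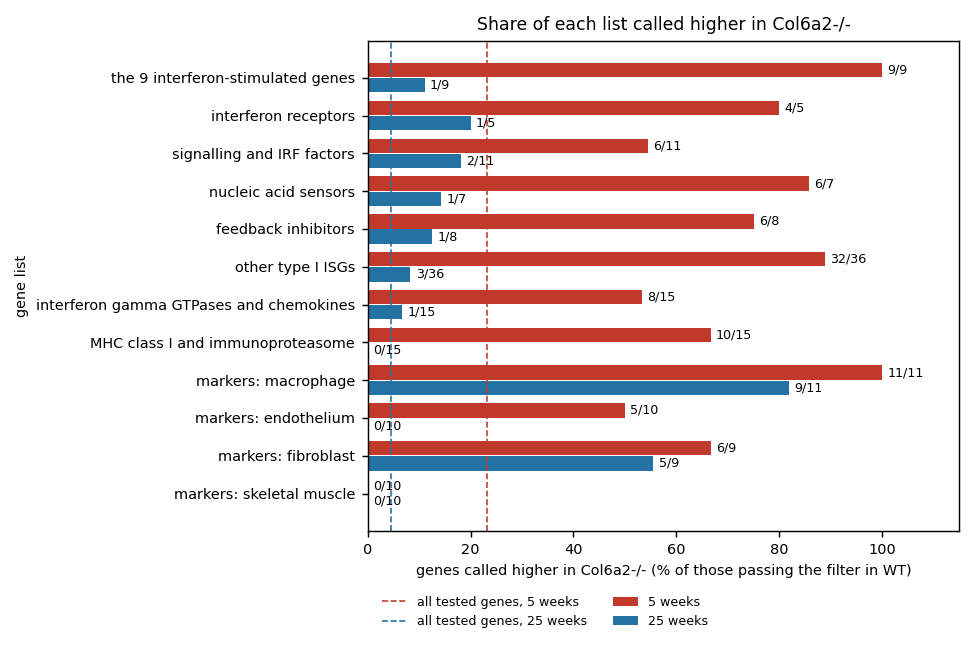
Percent of each list's genes called higher in Col6a2-/-, of those that passed the filter in WT alone (x axis), at 5 weeks (red) and 25 weeks (blue), with counts beside the bars; dashed lines mark the share over all tested genes, 23.2% and 4.47%. The 9 interferon-stimulated genes stand at 9 of 9 and 1 of 9, and the macrophage markers at 11 of 11 and 9 of 11.

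Markers of other cells moved alongside. In whole muscle, more cells of a type and more RNA per cell cannot be told apart. Of the macrophage markers that passed the filter in WT alone, 11 of 11 were called higher at 5 weeks (median change 1.31) and 9 of 11 at 25 weeks (0.74), against 23.2% and 4.47% of all tested genes. The summed level was taken over all 14 listed macrophage markers. It thus includes Fcgr1, Cd14 and Aif1, which did not pass in WT alone and reached at most 1.66, 2.66 and 5.07 TPM. At 5 weeks this sum ran from 76.3 to 79.9 TPM in WT females and from 83.6 to 127 TPM in WT males. In Col6a2-/- males it ran from 279 to 403 TPM. In Col6a2-/- females it ran from 116 to 407 TPM, and replicate 4, in which the 9 genes were lowest of its group, was the 116. At 25 weeks the sum ran from 50.6 to 136 TPM in WT and from 129 to 240 TPM in Col6a2-/-. The 25-week Col6a2-/- libraries had sums above every 5-week WT library, with Irf7 between 1.03 and 2.31 TPM and Ifitm3 between 18.5 and 32.4 TPM. The part of macrophages in the rise of the 9 genes was not tested.

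**Figure D4:**
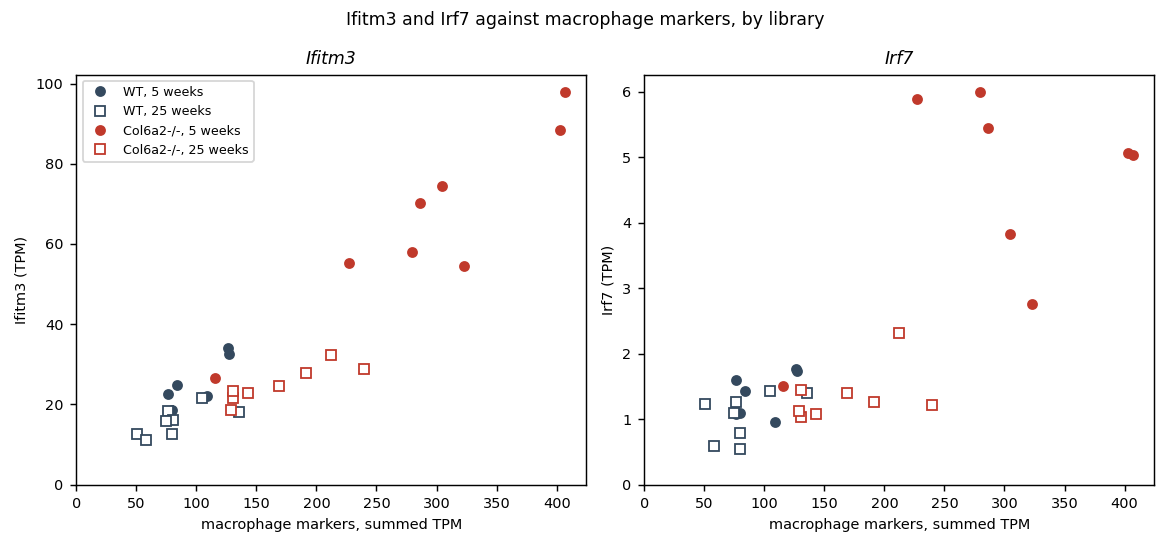
Level of Ifitm3 (left) and Irf7 (right) in TPM (y axis) against the summed TPM of all 14 listed macrophage markers (x axis) in each of the 32 libraries. Circles are 5 weeks and open squares 25 weeks, dark is WT and red is Col6a2-/-. Of the 5-week Col6a2-/- libraries, 7 have sums of 227 to 407 TPM, a range whose low end 1 of the 25-week Col6a2-/- libraries reaches (240 TPM), and the other has 116 TPM.

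Of the other blood cell types, T cell, NK cell and neutrophil markers were low. The summed T and NK cell markers ran from 0.047 to 0.658 TPM in WT and from 0.480 to 3.16 TPM in Col6a2-/- at 5 weeks, and from 0.108 to 1.06 TPM and 0.201 to 1.25 TPM at 25 weeks. None of the 12 passed the filter, and Cd3e was at 0 in 23 of 32 libraries. The sum of the 6 neutrophil markers ran from 0.313 to 1.38 TPM in WT and from 0.371 to 4.45 TPM in Col6a2-/- at 5 weeks, and from 0.419 to 3.504 TPM and 0.927 to 5.32 TPM at 25 weeks. Of its members S100a9 reached 2.86 TPM and S100a8 2.06 TPM, and Ly6g, which defines the type, was at 0 in all 32 libraries. The sum of 4 markers of plasmacytoid dendritic cells, which make much type I interferon, ran from 10.1 to 14.8 TPM in WT and from 9.98 to 21.96 TPM in Col6a2-/- at 5 weeks. Nearly all of it was Tcf4, a factor used by many cells (8.52 to 21.6 TPM), while Siglech and Ccr9 reached at most 0.585 and 0.053 TPM. Bst2, itself on that list, and Cox6a2, which muscle fibres also express, were left out of the sum. The B cell sum, nearly all Ighm, ran from 11.8 to 61.0 TPM in WT and from 15.7 to 25.1 TPM in Col6a2-/- at 5 weeks and from 24.2 to 114 TPM and 19.2 to 94.9 TPM at 25 weeks. Endothelial markers had 5 of 10 called higher at 5 weeks and 0 of 10 at 25 weeks by limma (2 at an unadjusted p under 0.05), and fibroblast markers 6 of 9 and 5 of 9 (median changes 0.40 and 0.58), against 23.2% and 4.47% of all tested genes. Skeletal muscle markers had 0 higher and 6 of 10 lower at 5 weeks, against 2.14% of all tested genes called lower, and 0 of 10 called by limma at 25 weeks (6 lower at an unadjusted p under 0.05). Muscle genes were abundant in every library, with summed levels of at least 29557 TPM. The part of these cells in the result was not tested.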

How the data were processed

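Quadriceps RNA of 32 mice in 8 groups (WT or Col6a2-/-, 5 or 25 weeks, female or male, 4 each) was used as deposited, 1 table per library. The authors computed TPM and FPKM values and a coverage signal per gene, per the file headers. FastQC, MultiQC, Trimmomatic, HISAT2, SAMtools and StringTie, and the builds GRCm38 and mm10, are named in the submitters' processing notes. Their versions and the use of strand are not given in the sources used here. Per the labels' protocols, frozen sections were lysed and libraries made with a TruSeq RNA kit. Read counts were not used here, so count tests did not apply.

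TPM was summed per gene ID. Genes were kept where 4 or more libraries reached 1 TPM (12817 genes), and a pseudocount of 1 was added before taking log2. limma 3.58.1 in R 4.3.3 (1 mean per group, all 32 libraries, eBayes with trend, two-sided, Benjamini-Hochberg over all tested genes) gave 11 contrasts with the sexes or other factors weighted equally. The fit was tested on simulated data. Correlations used 100000 permutations. Tables and plots used Python 3.11.15, numpy 2.4.6, pandas 2.3.3, scipy 1.17.1, statsmodels 0.14.6 and matplotlib 3.10.9. TPM is relative to a total in which mitochondrial genes held 31.9% to 46.9% and Rn7s genes 20.8% to 30.5%, and for this reason 2 other scalings and a rescaling without these genes were run. Depth is known only as the ratio of coverage to FPKM, so no counting intervals are given. Coordinates are those of the tables. Promoters came from RefSeq on GRCm38.p6.

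The 9 genes and all lists were chosen with earlier results of these data known. All 9 are named, with Col6a2, a fixed set of receptors and factors, per list the 3 smallest p at each age and the genes of extreme change, and the 5 genes most like the 9. B cell, neutrophil and plasmacytoid dendritic cell markers are given as values. Of the genes this rule takes, 1 is not reported here.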

Additional observations from a re-analysis of the deposited data

Results flagged for a closer look

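In 6 of 72 sets of 4 mice (9 genes in 8 groups) 1 mouse lay far from the other 3, where chance alone gives about 1 in 20 such sets, or 3.6. Irf7 stood at 1.59 TPM in replicate 4 of the 5-week WT females, above the other 3 mice, and at 1.505 TPM in replicate 4 of the 5-week Col6a2-/- females, below the other 3. Rsad2 stood high at 1.46 TPM in the same replicate 4 of the 5-week WT females and low at 0.836 TPM in replicate 4 of the 5-week WT males. In 25-week WT males Stat2 stood low at 0.770 TPM in replicate 4 and Bst2 low at 2.33 TPM in replicate 3.

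The effect of genotype on Irf7 differed between the ages by -0.95 (limma adjusted p = 0.0459), smaller at 25 weeks, a call that was lost with the replicate block (limma adjusted p = 0.0572) and in 26 of 32 fits that left out 1 library.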

How the results depend on the processing

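All 9 genes were above 0 at 5 weeks under every alternative run. The count of the 9 called there was 8 with no filter, median-of-ratios size factors, quantile normalization or the libraries of that age alone. It was 8 to 9 when single libraries were left out. A filter at 5 TPM left 5 tested (Ifit3, Irf7, Irf1, Bst2 and Ifitm3) and called 5, with 1342 of 6573 genes called higher. Ifit3 (at most 4.64 TPM in WT) and Irf7 (at most 1.77 TPM in WT) passed that filter through Col6a2-/- alone. Irf1 did not pass it in the WT libraries alone either. Counts with the 5 TPM filter, here and below, are therefore no support for these genes. At 25 weeks the count was 0 with no filter and 0 to 1 when single libraries were left out. With the libraries of that age alone it was 2 of the 8 tested, as Isg15 did not pass the filter, with 1087 of 11779 genes called. For genotype by age it was 0 with a pseudocount of 0.1, no filter, the 5 TPM filter, FPKM or the replicate block, 2 with median-of-ratios size factors, 5 with array weights, and 0 to 7 when single libraries were left out. For 5-week females it was 5 with no filter, 5 with the 5 TPM filter, 2 with the libraries of that age alone, and 3 to 9 when single libraries were left out, and for 5-week males 2 to 6. For 25-week males it was 0 with no filter, FPKM or the rescaling without mitochondrial and Rn7s genes. It was 4 of 8 tested with that age alone (1017 of 11779 genes called), 5 with array weights, and 0 to 1 when single libraries were left out. Age in WT gave 1 with no filter and 1 to 4 when single libraries were left out, and age in Col6a2-/- gave 4 with the 5 TPM filter and 7 to 9. The share of all tested genes called moved as well. Apart from the fits that left out single libraries, it ran for genotype by age from 0.349% with no filter to 1.88% with array weights, for 25-week males from 0.404% to 19% and for 5-week females from 4.3% to 22.5%. Over those settings the genes called numbered 1553 to 4154 at 5 weeks, 343 to 1967 at 25 weeks and 295 to 1372 in 5-week males. With age they numbered 1441 to 4166 in WT and 2263 to 5523 in Col6a2-/-. When single libraries were left out, 455 to 3865 genes were called in 5-week females, 55 to 816 in 25-week males and 49 to 229 for genotype by age. The cause of these shifts was not tested.

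In the genotype and age comparisons, sign changes occurred in changes near 0 that no alternative called. With quantile normalization these were Stat2 at 25 weeks (-0.044), Isg15 (-0.049) and Rsad2 (-0.034) in 25-week females and Stat2 with age in WT (0.081). Array weights gave Ifit1 0.0067 and Rsad2 -0.010 in 25-week females. Stat2 with age in WT was 0.045 after rescaling and 0.023 with median-of-ratios size factors, and Rsad2 with age in WT was -0.0031 with a pseudocount of 0.1. Leaving out single libraries, 25-week females ran from -0.036 to 0.13 (Isg15), -0.049 to 0.024 (Ifit1), -0.19 to 0.033 (Ifit3), -0.14 to 0.0073 (Irf7) and -0.069 to 0.14 (Rsad2), and age in WT from -0.081 to 0.0041 (Stat2) and -0.086 to 0.062 (Rsad2).

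Whether mice of the same replicate number belong together was not tested. Deviations of same-numbered libraries of different groups had a median r of 0.032, above 0.1 in 35 of 112 pairs. Those of other-numbered libraries had a median r of -0.013, above 0.1 in 65 of 336. With the replicate block the counts were otherwise 9 at 5 weeks, 1 at 25 weeks, 8 in 5-week females, 5 in 5-week males and 2 for age in WT. Of all 12817 tested genes, that fit called 3293, 658, 1709, 695 and 2587 in the same order, in either direction. Depth limits Isg15, Ifit1, Irf7, Stat2 and Rsad2 most, whose medians lay under 2 TPM.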
